A study of Homo sapiens with 42 samples.

Results

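ABCA1 (ATP-binding cassette transporter A1, Entrez Gene 19) was measured in Hep3B cells, a human hepatoma line, by 1 probe, number 8224. It is the 1 probe among 13824 that names only this gene in the array annotation, where 7336 probes name a single gene and 5631 genes are named. The gene lies on chromosome 9 at chr9:104781006-104928155 of GRCh38.p14, on the minus strand. CM is a medium that the labels call cytokine-enriched and pro-inflammatory, and NCM is its control. CM arrays cover 7 times, T0, then 15 and 30 min, then 1 h, 3 h, 6 h and 16 h, and NCM arrays cover the same times. Each of the 14 groups holds 3 arrays, 1 from each of 3 experiments, and the CM and NCM culture of an experiment and time were set up from the same batch of trypsinized cells, which gives 21 pairs. The cells of all groups are Hep3B, and the labels name no genotype change, no cytokine of CM and no source of either medium.

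ABCA1 is a membrane protein that uses ATP to move phospholipid and cholesterol out of the cell onto lipid-poor apolipoprotein A-I, the first step in forming high-density lipoprotein (HDL), and in the body hepatocytes are a main site of that step. Its gene is induced by oxysterols through the liver X receptors, LXR alpha (NR1H3) and LXR beta (NR1H2), which bind DNA with a retinoid X receptor partner. Loss of ABCA1 in people causes Tangier disease, with very low HDL. In macrophages the exporter also limits the cholesterol that cells store.

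The sequence before the start of the gene is shown because transcription is known to be controlled there. The 250 bases upstream of the RefSeq start, GRCh38.p14 chr9:104928156-104928405, minus strand, are given 5′ to 3′ as RefSeq has them, with 3 matches in capitals, an E-box, an LXR-type direct repeat and a TATA box in that order.
ABCA1 upstream: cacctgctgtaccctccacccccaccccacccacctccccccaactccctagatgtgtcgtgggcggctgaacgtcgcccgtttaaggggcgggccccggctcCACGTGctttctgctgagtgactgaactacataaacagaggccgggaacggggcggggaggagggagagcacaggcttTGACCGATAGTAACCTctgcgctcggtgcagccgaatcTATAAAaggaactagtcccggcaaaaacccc
The direct repeat was searched on both strands as AGGTNA followed, after 4 free bases, by NGGTCA, a spelling chosen with the ABCA1 element known. It matched once, 69 to 54 bases before the start, and 0.0797% of 35116 RefSeq upstream windows of the same length held a match. CACGTG, the letters of an E-box, matched once in the ABCA1 window and in 6.34% of all windows, and TATAAA matched once and in 10.7% of all windows. GGGCGG, the letters of a GC box, matched 3 times and was present in 42.6% of all windows, and none of these matches overlap one another. TTCNNNGAA, a STAT consensus, TTGCNNAA, a C/EBP core, and the NF-kappaB consensus had 0 matches in these 250 bases, against 6.57%, 9.05% and 9.96% of all windows. A match is a description of the letters, and the arrays measured no binding.

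ABCA1 was chosen by its CM against NCM differences and its levels over time on these arrays, so those values are a description with no test. Levels are log2 normalized intensities of this probe, changes are CM minus NCM within a pair on the same scale, and errors are SDs over 3 arrays or 3 pairs. ABCA1 differed between the media by less than the SD of its pairs up to 1 h and was higher in CM than in NCM in every pair of 3 h, 6 h and 16 h. The mean change was 0.84 ± 0.29 at 3 h, 1.11 ± 0.79 at 6 h and 0.69 ± 0.50 at 16 h (SD, n = 3 pairs each), which is 1.79-fold, 2.16-fold and 1.61-fold. Taken over these 3 times, CM was higher in 9 of 9 pairs, with changes between 0.14 and 2.02 and a median of 0.76. Over all probes, 0.441% were higher in CM in 9 of 9 of these pairs. From T0 to 1 h CM was higher in 5 of 12 pairs, with changes between -0.79 and 0.79 and a median of -0.03. As bulk RNA was measured, more ABCA1 RNA in each cell and a larger share of cells with high ABCA1 cannot be told apart.

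**Figure D1:**
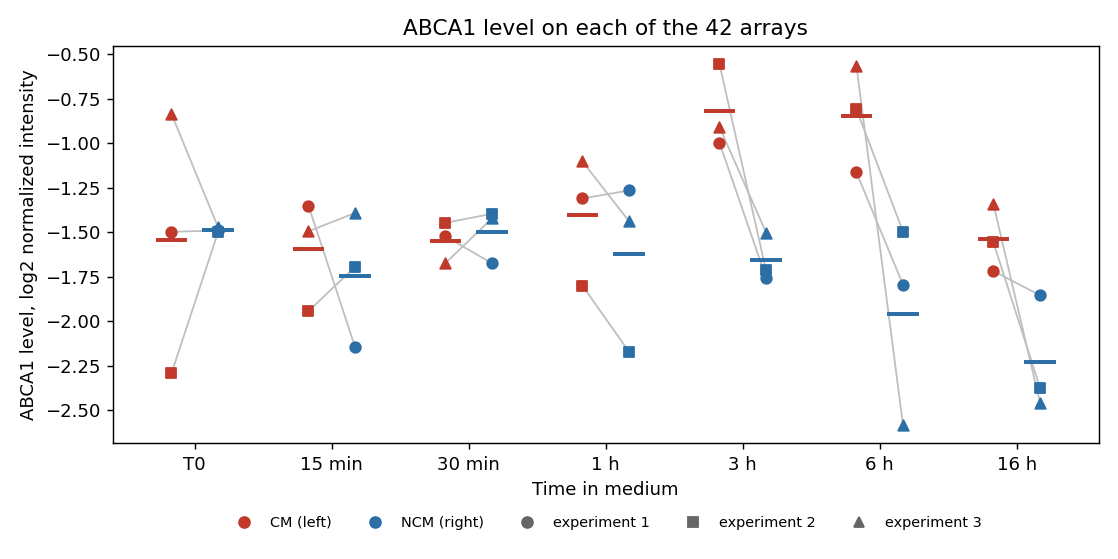
ABCA1 level (log2 normalized intensity) on each of the 42 arrays, by time in medium, CM left and NCM right. Symbols mark the experiment, grey lines join the cultures of a pair and short bars are group means. At 3 h, 6 h and 16 h all CM arrays lie above all NCM arrays of the same time, and at the earlier times the media overlap.

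At 3 h the ABCA1 level was -0.997, -0.56 and -0.91 in CM (experiments 1, 2 and 3), against -1.76, -1.72 and -1.50 in NCM. The groups did not overlap, and the lowest CM array lay 0.51 above the highest NCM array. All 3 CM arrays lay above all 3 NCM arrays for 2.58% of probes at this time, and CM was higher in 3 of 3 pairs for 14.6%. The 3 pair differences were 0.76, 1.16 and 0.59, the closest to one another of the 3 late times. A larger mean change was found for 40 of the 13824 probes.

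At 6 h the level was -1.16, -0.81 and -0.57 in CM, against -1.80, -1.50 and -2.58 in NCM. The groups did not overlap, with a gap of 0.33, and the array of experiment 3 was both the highest in CM and the lowest in NCM. The pair differences were 0.63, 0.69 and 2.02. Without experiment 3 the mean change was 0.66 in place of 1.11. No overlap with CM higher was found for 2.08% of probes and 3 of 3 pairs higher for 13.3%, and 15 probes had a larger mean change.

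At 16 h the level was -1.72, -1.56 and -1.34 in CM, against -1.86, -2.37 and -2.46 in NCM. The groups were separated by 0.14, and experiment 1 had the smallest pair difference, 0.14, beside 0.82 and 1.12 in the others. With the arrays only centred on their medians the groups overlapped at 16 h, the lowest CM array at -1.98 and the highest NCM array at -1.82, with all 3 pairs still higher in CM. No overlap was found for 2.48% of probes and 3 of 3 pairs higher for 13.3%, and 157 probes had a larger mean change.

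The early times show how far single arrays of this probe can lie apart. At T0 the level was -1.50, -2.29 and -0.84 in CM, against -1.49, -1.50 and -1.47 in NCM. The CM arrays spread over a range that takes in all NCM arrays, with a mean change of -0.06 ± 0.72. At 15 min the level was -1.35, -1.94 and -1.50 in CM, against -2.15, -1.70 and -1.39 in NCM, with a mean change of 0.15 ± 0.57 and 1 of 3 pairs higher. At 30 min it was -1.52, -1.45 and -1.67 in CM, against -1.68, -1.40 and -1.42 in NCM, with a mean change of -0.05 ± 0.20 and 1 of 3 pairs higher. At 1 h it was -1.31, -1.80 and -1.10 in CM, against -1.27, -2.17 and -1.44 in NCM, with a mean change of 0.22 ± 0.23 and 2 of 3 pairs higher. At 1 h the mean change was 0.12 as deposited and 0.35 without experiment 1, and 3 of 3 pairs were higher as deposited, with median centring and with neighbour centring, where each probe is set against those of nearby number. The media overlapped at all 4 of these times. No overlap with CM higher was found for 1.19%, 2.71%, 1.17% and 2.4% of probes at T0, 15 min, 30 min and 1 h, and CM was higher in 3 of 3 pairs for 9.47%, 11.9%, 8.8% and 15.6%. The mean changes at T0, 15 min and 30 min took either sign under other processing or with 1 experiment left out, in ranges of -0.40 to 0.31, -0.18 to 0.35 and -0.15 to 0.05.

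**Figure D2:**
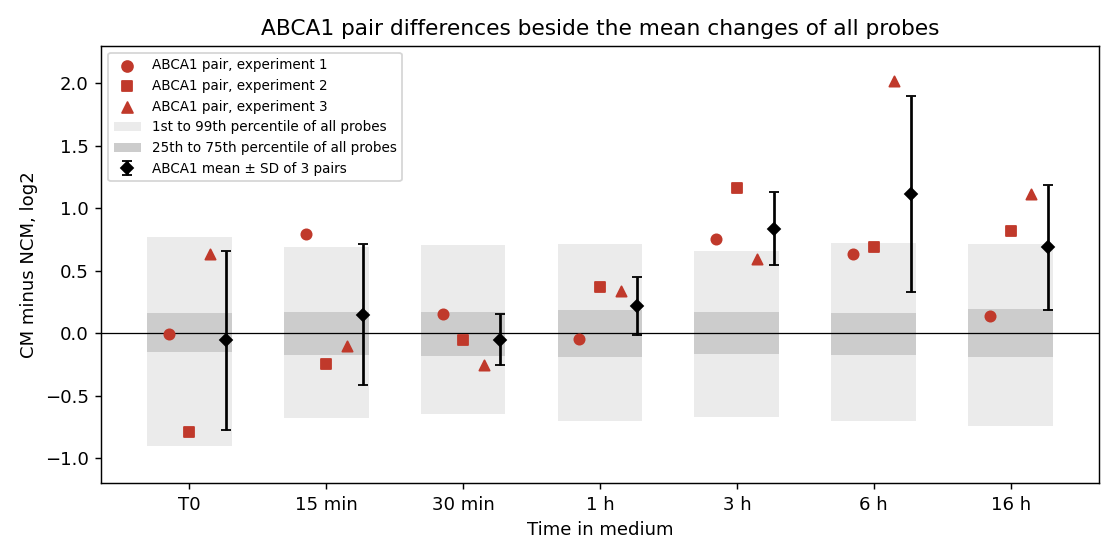
CM minus NCM on the log2 scale by time in medium. Red symbols are the 3 ABCA1 pair differences of each time, black diamonds their mean with SD, and grey boxes the spread of the mean changes of all 13824 probes. The ABCA1 mean lies within the 1st to 99th percentile of all probes up to 1 h and at 16 h and above it at 3 h and 6 h, with the widest SD, 0.79, at 6 h.

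The difference can also be read in the deposited intensities, before any step of normalization between arrays. At 3 h ABCA1 had 0.557, 0.503 and 0.550 in CM, against 0.310, 0.234 and 0.320 in NCM. At 6 h it had 0.527, 0.590 and 0.595 in CM, against 0.406, 0.456 and 0.202 in NCM. At 16 h it had 0.283, 0.277 and 0.317 in CM, against 0.249, 0.0871 and 0.204 in NCM. CM was higher than NCM in 9 of 9 of these pairs, the ratio lying between 1.13 and 3.18, and the groups of a time did not overlap on this scale either. From T0 to 1 h CM was higher in 6 of 12 pairs as deposited. The mean log2 change with the deposited values was 0.91 at 3 h, 0.77 at 6 h and 0.83 at 16 h, so the order of the 3 late times was not the same as after normalization. The mean changes of all probes had a median between -0.07 and 0.00 on that scale.

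**Figure D3:**
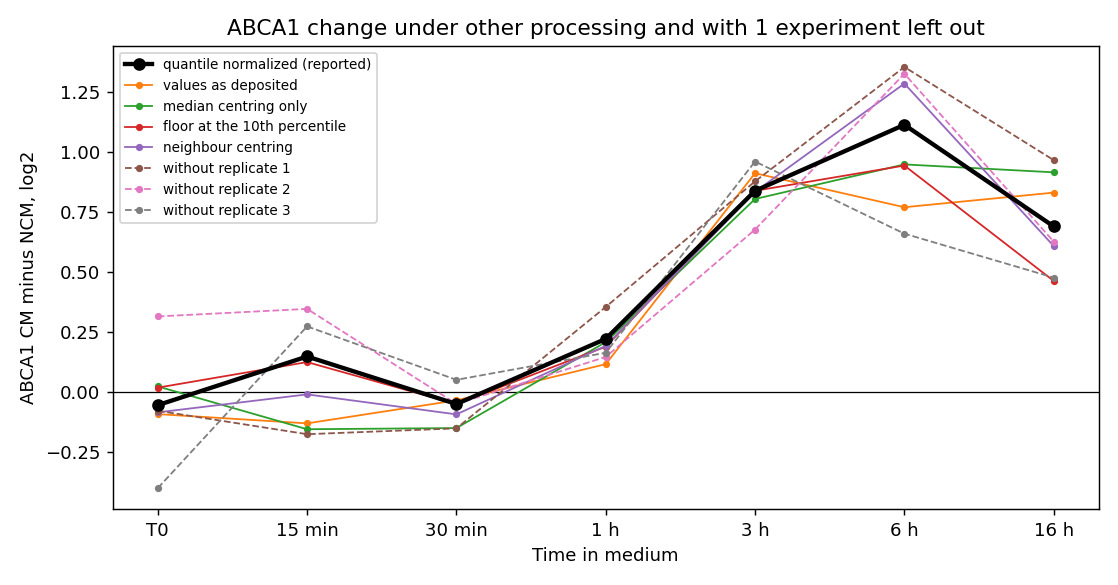
Mean ABCA1 change (CM minus NCM, log2) by time in medium. The black line is the reported value, solid coloured lines use other processing and dashed lines leave out 1 experiment. At 3 h, 6 h and 16 h every line lies above 0, the lowest value being 0.46 at 16 h with the floor at the 10th percentile. At 6 h the lines run from 0.66 without experiment 3 to 1.35 without experiment 1.

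Within CM, the order of the group means from high to low was 3 h at -0.82 ± 0.23, 6 h at -0.85 ± 0.30, 1 h at -1.40 ± 0.36, 16 h at -1.54 ± 0.19, T0 at -1.54 ± 0.73, 30 min at -1.55 ± 0.12 and 15 min at -1.60 ± 0.31 (SD, n = 3 arrays each). Every neighbour in this order overlapped the next, the widest step being the 0.56 between 6 h and 1 h. The highest means in CM were those of 3 h and 6 h, with 6 h first when the values were taken as deposited or only centred on array medians. The range of the means was 0.78, or 1.71-fold, beside a median SD of 0.30 within groups.

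Within NCM, the order was T0 at -1.49 ± 0.01, 30 min at -1.50 ± 0.15, 1 h at -1.63 ± 0.48, 3 h at -1.66 ± 0.14, 15 min at -1.74 ± 0.38, 6 h at -1.96 ± 0.56 and 16 h at -2.23 ± 0.33 (SD, n = 3 arrays each). Neighbours again overlapped throughout. The range of the means was 0.74, or 1.67-fold, and 16 h stood last in NCM with the values as deposited and with median centring too. Relative to the T0 mean of the same medium, ABCA1 stood at 0.72 in CM and -0.17 in NCM at 3 h. The value in CM was 0.21 without experiment 2, whose T0 array was the lowest in CM, and 1.12 without experiment 3. At 6 h it stood at 0.70 in CM (0.30 without experiment 2) and -0.47 in NCM. This NCM value was -0.03 as deposited, -0.19 with median centring and -0.15 without experiment 3, whose NCM array was the lowest of all. At 16 h it stood at 0.00 in CM and -0.74 in NCM. The CM value at 16 h had no settled sign, being -0.14 as deposited, -0.20 with median centring and -0.36 to 0.26 with 1 experiment left out, and the NCM value lay between -1.09 and -0.62 under the same settings. The labels do not say whether cultures of 1 experiment at different times share a batch of cells, so the levels over time are compared between arrays and not within pairs.

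Some values of the arrays bear on how firmly a single probe can be read. The ABCA1 probe was at the lower limit set for intensities, the 1st percentile, on 0 of 42 arrays. At no time did another probe carry its values. With that limit at the 10th percentile its mean change was 0.84 at 3 h, 0.94 at 6 h and 0.46 at 16 h. In brightness, which does not rank transcripts, the ABCA1 probe exceeded 19.2% of probes on average over the arrays. In NCM it exceeded 4.92% in experiment 3 at 6 h, and 6.68% and 5.92% in experiments 2 and 3 at 16 h. On the other NCM arrays of these times it exceeded 13.7% to 24.3%. If probe numbers are taken as places on the array, its neighbouring probes had mean changes of 0.00 at 3 h, -0.17 at 6 h and 0.08 at 16 h, and with the neighbours' deviations subtracted ABCA1 had 0.83, 1.28 and 0.61. In the whole series limma called 0 probes at each time up to 6 h (0% of 13824) and 1 at 16 h (0.00723%), CFB, after Benjamini-Hochberg adjustment, with 450 probes at an unadjusted p under 0.05 at 3 h, 520 at 6 h and 658 at 16 h. CFB, complement factor B, rose by 1.47 at 16 h (SE 0.22, n = 3 pairs, adjusted p = 0.0177 by limma), and its other probes had 0.47 and 0.30. This call was lost without any 1 experiment. IL32, a cytokine gene, had 1.24 at 6 h higher in CM in 9 of 9 late pairs, and NFKBIA, an inhibitor of NF-kappaB, had 1.23 at 1 h, neither past the threshold.

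Among the other genes of cholesterol handling no member passed the test. Of 132 genes in 8 lists, 61 were on the array, and limma called 0 of them higher and 0 lower at each of the 7 times after Benjamini-Hochberg adjustment over all probes. At an unadjusted p under 0.05 by limma there were 1 of 61 at 3 h, 2 at 6 h and 3 at 16 h. Over the array there were 450, 520 and 658 of 13824 probes at these times. The smallest adjusted p of the 61 genes at any time was 0.942. Their median change was -0.03 at 3 h, -0.04 at 6 h and -0.02 at 16 h, against 0.00, -0.02 and 0.02 over 5631 genes. The highest change among them was 0.59 at 3 h, 0.74 at 6 h and 0.91 at 16 h, and the lowest was -0.72, -0.57 and -0.54. The medians of single lists, given next, rest on few genes and moved with the processing, as stated for each list at 6 h. Across the 7 times, limma's F test called 0 members in CM and 0 in NCM, beside 1 probe (0.00723%) in CM and 2 (0.0145%) in NCM over the array.

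**Figure D4:**
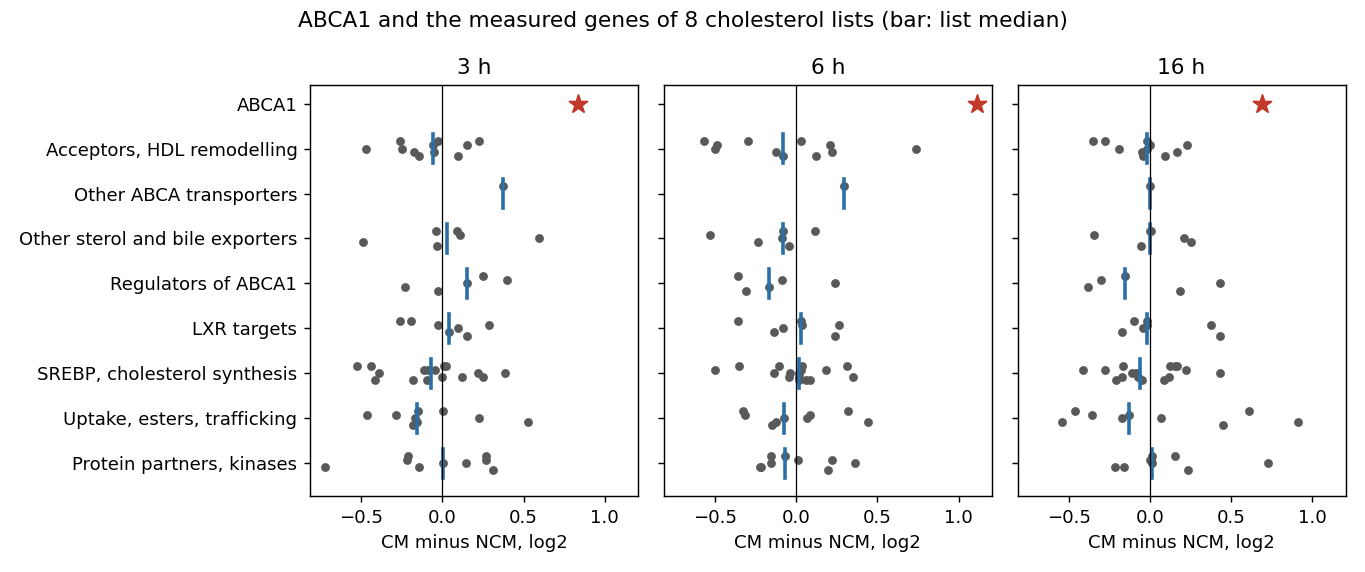
CM minus NCM on the log2 scale at 3 h, 6 h and 16 h for ABCA1 (star) and for each measured gene of 8 cholesterol lists (dots, with a bar at the list median; the vertical scatter within a row has no meaning). ABCA1 lies to the right of every listed gene at 3 h and 6 h, and at 16 h CYP7B1 at 0.91 and CAPN2 at 0.72 lie beyond its 0.69.

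Among lipid acceptors and proteins that remodel HDL, 11 of 17 were measured, with a median change of -0.08 at 6 h (-0.26 as deposited) and 5 above 0. Over 5631 genes, 47.3% were above 0 at 6 h. APOA1, which encodes the apolipoprotein that takes up lipid from ABCA1, had -0.57 at 6 h (SE 0.26, n = 3 pairs, adjusted p = 0.999 by limma), below 0 in each pair, and its further 2 probes had -0.01 and -0.22. At 3 h and 16 h the brightest APOA1 probe had -0.03 and -0.35, lower in CM in 2 of 3 pairs at each. CETP, which exchanges cholesteryl ester between lipoproteins, had 0.74 at 6 h (SE 0.28, 3 of 3 pairs higher), and -0.25 and -0.19 at 3 h and 16 h. APOC1, an apolipoprotein of HDL and triglyceride-rich particles, had -0.50 at 6 h and 0.30 on its other probe.

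Among other transporters of the ABCA subfamily, 1 of 11 was measured, ABCA5, with 0.37 at 3 h, 0.29 at 6 h (0.04 without experiment 2) and 0.00 at 16 h. Of 11 further exporters of sterols, bile acids and related compounds, 6 were measured, with a median of -0.08 at 6 h and 1 above 0. That median was -0.30 as deposited, -0.21 without experiment 1 and -0.02 without experiment 3. Beside the count of 1, the share above 0 at 6 h was 45.9% of the 61 listed genes and 47.3% of 5631 genes. ABCC2, which exports conjugated compounds into bile, had -0.53 at 6 h (SE 0.27, lower in CM in 3 of 3 pairs) and 0.16 and -0.28 on its other probes. ABCD3, a peroxisomal transporter, had -0.24, and ABCC3, an exporter on the blood side of the hepatocyte, had 0.59 at 3 h, -0.09 at 6 h and 0.21 at 16 h. ABCG1, ABCA7 and ABCA2 were not analysed here.

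Of 22 nuclear receptors and transcription factors known to act on ABCA1 or near it, 5 were measured, with a median of 0.15 at 3 h, -0.17 at 6 h and -0.16 at 16 h. At 6 h it was -0.32 as deposited and -0.34 without experiment 1. NR1H3, LXR alpha, had 0.15 at 3 h, 0.24 at 6 h and 0.43 at 16 h (SE 0.30 each). It was higher in CM in 7 of 9 pairs, but in only 1 of 3 at 6 h. NCOA2, a coactivator of nuclear receptors, had -0.36 at 6 h, lower in CM in 3 of 3 pairs, and SP1, which binds GC boxes, had -0.31. Of 12 genes known as LXR targets beside ABCA1, 7 were measured, with a median of 0.04 at 3 h, 0.03 at 6 h and -0.02 at 16 h, and the 6 h value ran from -0.09 to 0.15 under other settings. LPCAT3, which remodels phospholipids, had 0.26 at 6 h and SCD, a fatty acid desaturase, had -0.36, with -0.08 on its other probe. MYLIP, the ubiquitin ligase that lowers the LDL receptor, had 0.04 at 3 h, -0.14 at 6 h and -0.17 at 16 h. Neither NR1H3 nor a measured target passed the test at any time. Of the 61 genes, 49 had an upstream sequence in the RefSeq table, and 0 of these held the LXR-type repeat as spelled above. That spelling was chosen with the ABCA1 element known and matched 0.0797% of all windows. A count of 0 among so few genes therefore says nothing of LXR elements spelled otherwise.

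Of 28 genes of the SREBP system and cholesterol synthesis, 16 were measured, with a median of -0.07 at 3 h, 0.02 at 6 h and -0.06 at 16 h, and the 6 h value was -0.13 as deposited and 0.07 without experiment 2. SREBF2, the transcription factor gene that drives synthesis and uptake, had -0.10, 0.06 and -0.05 at these times. DHCR7, which makes the last step to cholesterol, had -0.50 at 6 h (SE 0.28, lower in CM in 3 of 3 pairs), SQLE, squalene epoxidase, had 0.35 with 3 of 3 pairs higher, and MVK, mevalonate kinase, had -0.35 with -0.60 on its other probe. Of 21 genes of uptake, esterification and trafficking, 9 were measured, with a median of -0.07 at 6 h (-0.27 as deposited, 0.01 without experiment 2). CYP7B1, an oxysterol hydroxylase, had 0.53 at 3 h, 0.44 at 6 h and 0.91 at 16 h, higher in CM in 7 of 9 pairs. CAV2, a caveolin, had -0.33 at 6 h, and CD36, a fatty acid and lipoprotein receptor, had -0.32, with -0.16 to 0.00 on its other probes. Of 16 partners and kinases of the ABCA1 protein, 9 were measured, with a median of -0.07 at 6 h (0.13 with median centring, 0.08 without experiment 1). CAPN2, a calpain subunit, had 0.36 at 6 h, with -0.25 to 0.13 on its other probes. PRKCA, protein kinase C alpha, had 0.31, 0.20 and 0.23 at the late times, higher in CM in 9 of 9 pairs. This probe already had 0.38 at T0, higher in CM in 3 of 3 pairs. The other PRKCA probes had -0.22 and 0.15 at 6 h and 0.02 and 0.95 at T0. They were higher in CM in 4 and 6 of 9 late pairs. STAT3, a transcription factor of cytokine signalling, had -0.22 at 6 h, with 0.04 to 0.13 on its other probes. Its brightest probe was higher in CM in 2 of 9 late pairs. Probe 10115 of STAT3 had 0.48, 0.13 and 0.33 at 3 h, 6 h and 16 h, higher in CM in 9 of 9 pairs. STAT3 probes 8720 and 10687 were higher in 5 of 9 each.

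Brightness of different probes does not settle the cell type, and it is given here for each marker list. The brightest probe stood for a gene, and the lists differ in probes per gene. Hepatocyte and hepatoma markers had 2 to 8 probes each, and stellate and endothelial markers 1 or 2. Of 14 hepatocyte and hepatoma markers 13 were measured, among them ALB, AFP and TTR, and they exceeded 69.9% to 98.2% of probes in brightness, with a median of 81.7%. For macrophage and monocyte markers the range was 23.8% to 96.5% with a median of 54.3%, the brightest being C1QA, a complement component. For stellate and endothelial markers it was 8.97% to 80.3% with a median of 47.6%, and for lymphocyte markers 8.36% to 56.8% with a median of 20.3%. Of 15 macrophage and monocyte markers 9 were measured, and their summed normalized intensity was 6.48 to 9.68 in CM against 7.52 to 9.07 in NCM at 3 h. It was 6.22 to 11.5 in CM against 8.63 to 11.95 in NCM at 6 h, and 6.91 to 9.40 in CM against 6.66 to 9.18 in NCM at 16 h, with the media overlapping at each. The sums of 3 of 12 lymphocyte markers and of 9 of 12 stellate and endothelial markers overlapped between the media at these times as well. At 6 h the lymphocyte sums were 1.29 to 1.62 in CM and 1.16 to 1.48 in NCM, and the stellate and endothelial sums were 4.81 to 5.52 in CM and 4.45 to 5.28 in NCM. The sums are carried by their brightest probes, and single markers differed between the media in both directions without passing limma's test. PECAM1, an endothelial adhesion molecule, had 0.80 at 6 h with 3 of 3 pairs higher in CM (SE 0.27, n = 3 pairs, adjusted p = 0.999 by limma), and -0.08 and -0.04 at 3 h and 16 h. CD163, a macrophage scavenger receptor, had 0.47, CD4 0.66 and ACTA2, a smooth muscle actin of activated stellate cells, 0.51 at 16 h, with CM above NCM in each pair, and -0.34, -0.10 and -0.25 at 3 h. Other members went the opposite way. C1QC had -0.46, TEK -0.32 and LUM -0.19 at 6 h, each with CM below NCM in 3 of 3 pairs. So did CD3D at -0.48, KDR at -0.45 and TEK at -0.35 at 16 h. Above 0 at 6 h were 5 of 9 macrophage and monocyte, 1 of 3 lymphocyte and 5 of 9 stellate and endothelial markers. At 16 h these counts were 6, 1 and 4. Of the hepatocyte and hepatoma markers, 9 of 13 were above 0 at 6 h and 6 of 13 at 16 h. Over 5631 genes, 47.3% were above 0 at 6 h and 53.0% at 16 h. As to single markers higher in each pair, CM was higher in 3 of 3 pairs for 13.3% of all probes at both times. The single markers named were chosen after their values were seen. The labels name only Hep3B cells, and a part of other cells in the ABCA1 difference was not tested.

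The genes whose pair differences ran most like those of ABCA1 over the 21 pairs were found by Pearson's r among 6854 single-gene probes, as a description. POLR3A, the largest subunit of RNA polymerase III, had r = 0.80, C5orf15 had 0.68, and RPS16, a ribosomal protein, LARS1, a leucyl-tRNA synthetase, and CLIC1, a chloride channel protein, had 0.68, 0.67 and 0.67. The 99th percentile over these probes was 0.53. POLR3A had mean changes of 0.27 at 3 h, 0.03 at 6 h and 0.16 at 16 h and -0.66 at T0. RPS16 had 0.32, 0.43 and 0.56 at the late times, higher in CM in 9 of 9 pairs, on a probe that related ribosomal sequences may share. It is 1 of 3 probes of RPS16, picked here by its r, and the values of the others are not given. The lowest values were -0.70 for ETAA1, an activator of the ATR kinase, -0.63 for ABCC6P1, a pseudogene close in sequence to ABCC6, and -0.61 for FXYD6, a regulator of the sodium pump. Pairs of a time share their arrays' processing, and POLR3A and LARS1 have the consecutive probe numbers 6358 and 6357. CLIC1, which is among the most alike genes over the array levels too, has probe number 8231, close to the 8224 of ABCA1. Whether nearness on the array has a part in these likenesses was not tested.

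Over the levels of the 42 arrays the highest r was 0.60 for LAPTM5, a lysosomal membrane protein known from blood cells, then 0.53 for BTN2A1, a butyrophilin, 0.52 for GTF2E2, a subunit of the general factor TFIIE, 0.50 for CCL20, a chemokine, and 0.48 for CLIC1. LAPTM5 had changes of 0.48 at 3 h, 0.34 at 6 h and 0.78 at 16 h, and CCL20 had 0.68, 1.01 and 1.29. Each had CM above NCM in all 9 late pairs, and neither was called at any time by limma. Both were picked for likeness to ABCA1, itself chosen by its late values. The points of these correlations share arrays and their normalization, and the medium and time of each array. Among the cholesterol genes the highest r of the pair differences were 0.42 for STARD4, a sterol carrier, 0.36 for NR1H3 and 0.32 for LPCAT3, and the lowest was -0.51 for DHCR7, these 4 chosen after their values were seen.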

How the data were processed

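The deposited values are linear intensities, 1 per probe and array on 42 arrays, with a mean of 0.999 to 1.00 and a median of 0.354 to 0.807 per array. They were made with scanner, background and scaling steps not given in the sources used here. Gene names came from the array annotation, matched by Entrez ID to GRCh38.p14, and the brightest probe stood for a gene. Because array medians had an SD of 0.31 on the log2 scale, arrays were quantile normalized on the linear scale, raised to at least the 1st percentile over all arrays (0.0812) and put on the log2 scale.

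limma 3.58.1 in R 4.3.3 fitted all 42 arrays with a term for each pair and a CM effect for each time, with moderated two-sided tests adjusted by Benjamini-Hochberg over 13824 probes and a threshold of 0.05. The pairs come from the labels, and deviations within pairs correlated at 0.308 to 0.754 in 21 of 21. F tests over time used the 21 arrays of a medium. SEs rest on a spread pooled over times. The fits were also run on data simulated with independent normal noise of their own fitted spread. That run checks the code and not the behaviour of real arrays. How many of the changes put in were called is not given here.

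The gene, lists and tests were chosen with earlier results of these data known. The named genes are ABCA1, fixed regulators and partners where measured (5 of 14: NR1H3, APOA1, MYLIP, SREBF2 and SP1), up to 3 genes per list with the smallest unadjusted p at 6 h, the most alike genes, and CFB, IL32 and NFKBIA. Second probes and genes beyond this rule were added with their values known. The precision is limited by 3 arrays per group.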

Additional observations from a re-analysis of the deposited data

How the results depend on the processing

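The mean ABCA1 change stayed above 0 at 3 h, 6 h and 16 h in 24 of 24 values under other settings. The ranges were 0.68 to 0.96, 0.66 to 1.35 and 0.46 to 0.97, and each value moved by less than the SD of its pairs. Many of these values could not have come out otherwise. Without the replicate block the mean is the same by design. As 9 of 9 late pairs were above 0, a mean without 1 experiment must be above 0 too. Nor can it move by as much as the SD of 3 pairs. Only the other scalings, floor and neighbour centring could have changed the sign. With no replicate block the change at 6 h was 1.11 as with the pairs, and limma called 0 probes at 16 h; the paired fit changed no other call. Leaving out 1 replicate gave 0.66 to 1.35 at 6 h. The range of the time means in CM was 0.73 to 1.12 with 1 replicate left out, and that in NCM was 1.11 with median centring. At 16 h the 1 probe called, CFB, became 0 as deposited, with median centring, with each time fitted alone and without any 1 replicate, 2 with the floor at the 10th percentile, 2 without the dimmest 25% of probes, 3 with an intensity trend and robust spread and 5 with neighbour centring. At 3 h limma called 1 probe with that floor, 1 without the dim probes and 1 with the trend, against 0, and at 1 h 0 to 1 with 1 replicate left out. Probes differing between times in CM numbered 2 with median centring and 0 to 1 with 1 replicate left out. In NCM they numbered 1 as deposited, 1 with median centring and 0 with any replicate left out. With the replicate number as a block the counts over time were 1 in CM and 2 in NCM. The 6 h medians of the cholesterol lists lay between -0.32 and 0.20 as deposited, against -0.17 and 0.29 as reported. The lists had 0 members called under the 7 other settings in which they were counted. They were not counted with the floor at the 10th percentile or with neighbour centring. Nor were they counted without the dimmest 25% of probes, with each time fitted alone or with the trend. Median centring moved the median of all probes by -0.11 at 30 min, -0.11 at 3 h and 0.12 at 6 h. The cause of these moves was not tested. A mean over several ABCA1 probes could not be formed from 1 probe. No group held 4 or more arrays, so single arrays were not tested as outliers, and no background signal is given against which the dim ABCA1 probe could be set.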
